A study of Mus musculus with 6 samples.

Results

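Egress of lymphocytes from lymphoid organs depends on sphingosine-1-phosphate (S1P), a lipid that is kept high in blood and lymph and low inside tissues. The 10 genes described here are the S1P receptor genes S1pr1, S1pr2, S1pr3 and S1pr4, the S1P turnover genes Sphk2, Sgpl1 and Sgpp1, the S1P exporter gene Spns2, and the egress regulators Klf2 and Cd69. They were chosen by name for their part in S1P signalling and turnover, with earlier results of these data known. All were found by symbol among the 56941 Ensembl gene identifiers of the count table. Of the 10 genes, 9 had enough counts to be tested and Spns2 did not.

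RNA-seq counts of 6 samples were compared, 3 treated with S1P and 3 treated with vehicle. According to the labels, all were naive CD8+ T cells purified from spleens of B6 mice, and the study's methods allow total splenocytes as a starting material as well. Cells of both groups were activated for 3 days on plate-bound antibodies to CD3 and CD28 with recombinant IL-2 at 100 U/ml. S1P was added at 5 µM 24 h after activation to 1 group, and vehicle to the other. The mice were wild type. The ages and sexes stated for the work belong to its tumour and cell transfer experiments, and those of the mice that gave these cells are not given in the sources used here. The labels call the 3 samples of a group biological replicates without saying whether they came from separate mice or cultures, and the p-values measure the spread between these samples.

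Inside cells, S1P is made from sphingosine by the kinases encoded by Sphk1 and Sphk2. It is turned back into sphingosine by phosphatases such as that encoded by Sgpp1, or broken down irreversibly by the lyase encoded by Sgpl1. S1PR1 couples to Gi proteins and guides T cells along the S1P gradient out of lymphoid organs, and S1P itself drives the receptor off the cell surface. KLF2 is a transcription factor of quiescent T cells that maintains S1pr1 transcription. CD69 is an early activation protein that binds S1PR1 and takes it off the surface, so that activated cells are kept in the tissue.

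The promoter windows given by RefSeq on GRCm38.p6 covered 8 of the 10 genes with 9 windows, and S1pr1 and Cd69 were not among the 8. The 250 bases before each start site are shown for 3 of them: Klf2, since KLF2 recognises the CACCC box, Sphk2, with a window for each of its start sites, and Sgpl1, which holds no CACCC box. Each is written 5′ to 3′ on the gene's own strand, and capitals mark CACCC on either strand. The Klf2 window lies at chr8:72318812-72319061 on the plus strand, the Sphk2 windows at chr7:45718003-45718252 and chr7:45715208-45715457 on the minus strand, and the Sgpl1 window at chr10:61147685-61147934 on the minus strand.
Klf2: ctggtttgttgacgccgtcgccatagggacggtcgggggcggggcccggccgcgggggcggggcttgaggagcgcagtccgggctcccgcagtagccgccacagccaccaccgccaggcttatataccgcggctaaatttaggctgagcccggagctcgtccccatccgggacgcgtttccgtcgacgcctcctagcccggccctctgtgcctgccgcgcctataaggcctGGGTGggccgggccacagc
Sphk2 (upstream start): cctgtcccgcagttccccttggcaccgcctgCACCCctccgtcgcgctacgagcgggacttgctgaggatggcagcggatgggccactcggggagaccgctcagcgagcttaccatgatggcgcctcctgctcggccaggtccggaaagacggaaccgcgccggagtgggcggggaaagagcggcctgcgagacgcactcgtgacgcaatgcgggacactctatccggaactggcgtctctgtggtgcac
Sphk2 (downstream start): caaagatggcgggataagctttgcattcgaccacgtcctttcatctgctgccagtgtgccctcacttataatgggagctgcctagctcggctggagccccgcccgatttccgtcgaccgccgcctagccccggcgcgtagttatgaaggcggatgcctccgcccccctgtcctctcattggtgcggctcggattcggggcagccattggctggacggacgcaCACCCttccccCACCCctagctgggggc
Sgpl1: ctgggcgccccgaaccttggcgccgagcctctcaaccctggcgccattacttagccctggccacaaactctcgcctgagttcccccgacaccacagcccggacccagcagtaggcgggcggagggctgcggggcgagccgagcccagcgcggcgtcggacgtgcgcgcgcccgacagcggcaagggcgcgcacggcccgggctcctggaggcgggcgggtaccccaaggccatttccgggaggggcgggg

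CACCC was found in 5 of the 8 genes. The Klf2, S1pr2 and S1pr4 windows held 1 match each, the S1pr3 window 2, and the Sphk2 windows 1 and 2. Windows of Sgpl1, Sgpp1 and Spns2 held none. The letters are short, and 52% of the 250-base stretches of 32851 RefSeq windows held them. The letters TGTTTAC of FOXO factors (3.17% of windows), TGANTCA of AP-1 (6.75%) and TGATGNAA of C/EBP-ATF pairs (3.45%) were in none of the 9 windows on either strand. A match is a run of letters in these windows and no measure of binding.

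Library totals were 12048880 to 17384084 counts, and the standard errors below include this depth. Transcripts of the mitochondrial genome took 4.10 to 4.93% of counts in 5 samples and 7.80% in S1P replicate 2. S1P replicate 2 also stood apart from its group. In a chi-square test of counts, its pairs with S1P replicates 1 and 3 gave 31.4 and 17.8 per gene, against 3.77 to 5.97 for the other 4 pairs within a group. All pairs differed by more than sampling noise. Values per sample are TMM-normalized counts, which put all libraries on the mean library size. A gene was called changed when the quasi-likelihood test of edgeR gave a p, adjusted after Benjamini and Hochberg over the 13299 genes that could be tested, of at most 0.05 and the log2 fold change was at least 0.3 in size. Across all tested genes 23.1% were called, 12.7% higher and 10.4% lower after S1P, and the median log2 fold change was 0.01.

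Of the 9 members tested, 2 rose after S1P, namely S1pr1 and Cd69, and 0 fell. That is 22.2% of the members tested against 12.7% of all genes called higher, and 0% against 10.4% called lower. The adjusted p alone was passed by the same 2 members, and by 28.5% of all genes. By edgeR, 2 further members that were not called, Sphk2 and Sgpl1, had an unadjusted p under 0.05. The 3 S1P-treated values and the 3 vehicle values did not overlap for 4 of the 9 members (44.4%), S1pr1, Cd69, Sphk2 and Sgpl1, and that was so for 45.5% of all genes tested. The count of members is therefore close to that of the genome at large for overlap, and the members are described below by gene.

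**Figure D1:**
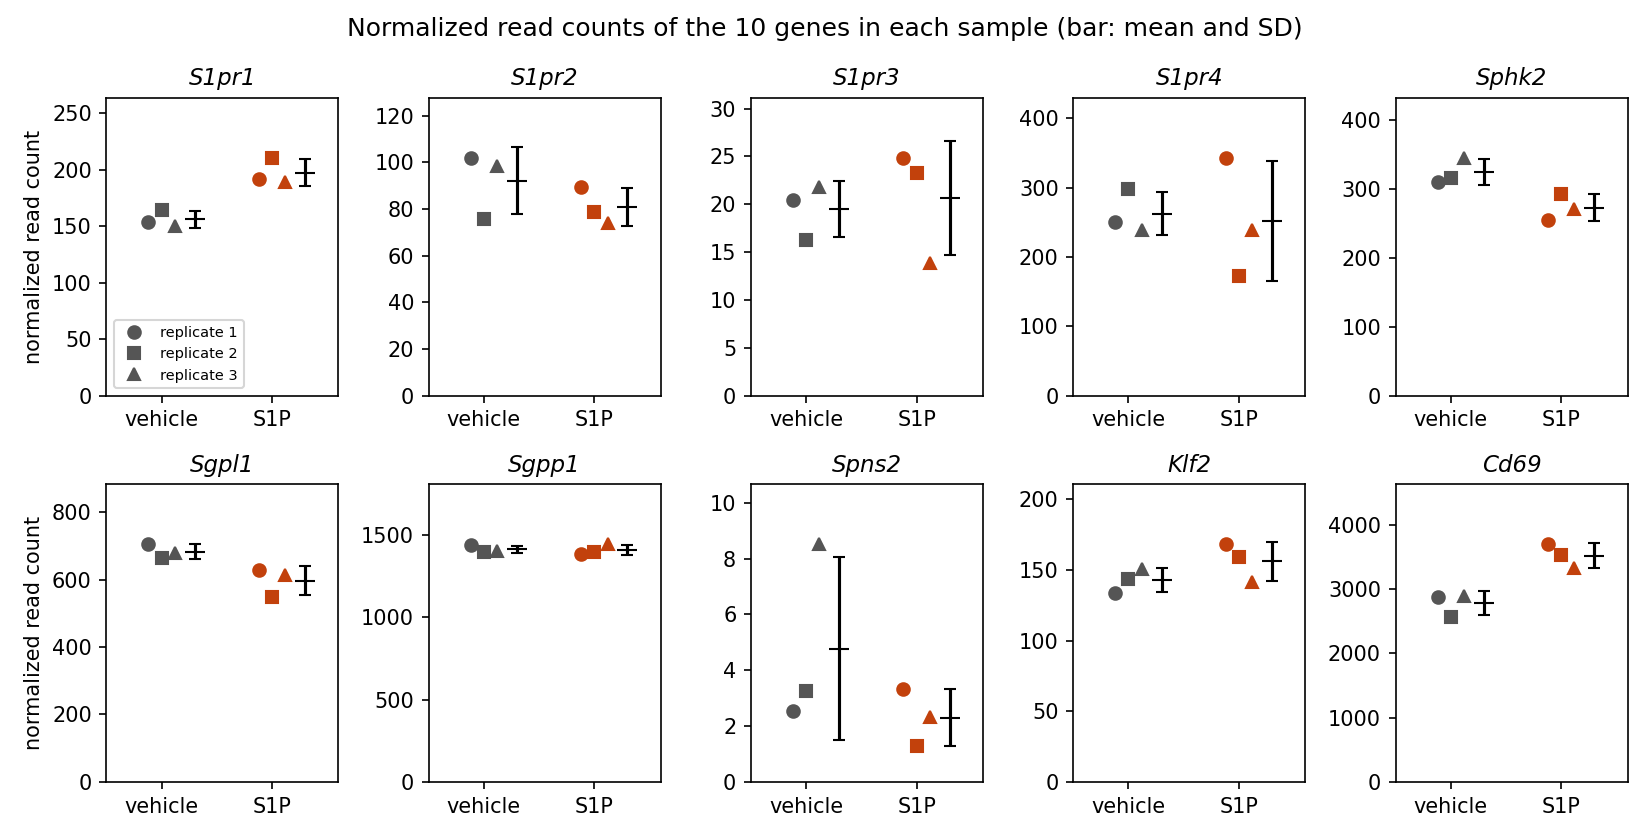
TMM-normalized counts of the 10 genes in each of the 6 samples, 1 panel per gene with its own axis from 0. Symbols are replicates 1 to 3, and the bar beside each group gives its mean and SD. The S1P-treated values of S1pr1 and Cd69 lie above all vehicle values, those of Sphk2 and Sgpl1 lie below them, and S1P replicate 2 is the lowest S1pr4 sample.

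Among the receptors, S1pr1 (chromosome 3, 115504071 to 115508721 on GRCm39, minus strand) encodes the egress receptor itself. Its normalized counts were 153.9, 164.4 and 149.8 with vehicle and 191.6, 210.6 and 188.6 with S1P. All S1P-treated samples were higher than all vehicle samples. The mean rose from 156 ± 7.54 to 196.9 ± 11.93 (SD, n = 3), 1.26-fold, with a log2 fold change of 0.34 (SE 0.11, 95% interval 0.09 to 0.58, adjusted p = 0.0405 by edgeR). The sign was positive under all 16 alternative fits, but the call was made under 6 of them. It was lost whichever of the 6 libraries was left out, with log2 fold changes of 0.29 to 0.37 and edgeR adjusted p of 0.0552 to 0.138.

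S1pr4 (chromosome 10, 81333581 to 81335966, minus strand) encodes a receptor found mainly on blood and lymphoid cells. Its normalized counts were 250.8, 297.4 and 238.9 with vehicle and 343.3, 171.8 and 238.4 with S1P. The S1P-treated group held both the highest and the lowest sample. The means were 262.3 ± 30.94 and 251.2 ± 86.47 (SD, n = 3), and the log2 fold change was -0.03 (SE 0.20, 95% interval -0.46 to 0.40, adjusted p = 0.922 by edgeR). The lowest sample, S1P replicate 2, is the one with the highest mitochondrial share, and without it the log2 fold change was 0.18. Without S1P replicate 1, the highest sample, it was -0.34 (adjusted p = 0.109 by edgeR). The part of RNA quality in this value was not tested.

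S1pr2 (chromosome 9, 20873657 to 20914139, minus strand) encodes a receptor that couples to G12 and G13 proteins and holds back migration. It gave 102, 75.7 and 98.58 normalized counts with vehicle and 89.57, 78.81 and 74.06 with S1P. The groups overlapped, and the log2 fold change was -0.19 (SE 0.17, 95% interval -0.55 to 0.18, adjusted p = 0.435 by edgeR). It was -0.11 without vehicle replicate 1 and -0.31 without vehicle replicate 2, the lowest vehicle sample, and not called either way. S1pr3 (chromosome 13, 51561702 to 51576833, plus strand), whose receptor is better known from vessels and heart, was near the lower end of what could be tested. Its raw counts were 12 to 30 per sample, with 62 over the vehicle samples and 60 over the S1P-treated ones. Normalized counts were 20.4, 16.22 and 21.8 against 24.88, 23.26 and 13.89, and the log2 fold change was 0.10 (SE 0.30, 95% interval -0.56 to 0.75, adjusted p = 0.837 by edgeR). Without S1P replicate 2 it was 0.03, and without S1P replicate 3 it was 0.30. The sign turned without S1P replicate 1, at -0.09, and without vehicle replicate 2, at -0.01. That interval holds both falls and rises, so it was not shown whether S1pr3 changed or stayed level.

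S1pr5, the remaining S1P receptor gene and best known from natural killer cells, was below the filter on low counts. It had 0, 1 and 0 counts with vehicle and 4, 3 and 1 with S1P. The sums of 1 and 8 give a rate ratio of 8.88 with a 95% counting interval of 1.19 to 394. That interval covers counting error only, and with the filter removed edgeR's test across all genes gave an adjusted p of 0.3004 for the gene.

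Per length, S1pr4 was the most abundant receptor transcript in these samples, which also held transcripts of B cells and CD4+ T cells. The study's introduction calls S1PR1 the predominant S1P receptor of T cells. That is a statement on the receptor in T cells, while the levels here are RNA of mixed samples. The study also followed the S1P receptor transcripts by qPCR during activation and reported that S1pr1 rose with time. It reported the same for S1PR1 protein by flow cytometry. Levels are given as RPKM, that is the CPM of a gene (its count scaled to the TMM-adjusted library size) divided by the kilobases of its merged exons. In vehicle samples S1pr4 stood at 7.44 ± 0.878, S1pr1 at 2.55 ± 0.123, S1pr2 at 0.613 ± 0.0952 and S1pr3 at 0.27 ± 0.0403 RPKM (SD, n = 3). With S1P the levels were 7.13 ± 2.45, 3.22 ± 0.195, 0.538 ± 0.0529 and 0.287 ± 0.0823 RPKM (SD, n = 3), in the same order. S1pr1 therefore made up 23.8, 22.7 and 24.1% of the RPKM of these 4 receptor genes with vehicle and 22.7, 37.6 and 29.3% with S1P. The shares overlapped, since S1P replicate 1 was level with vehicle replicate 2 and S1P replicate 2, with its low S1pr4, had the highest share. A higher S1pr1 level was thus seen in all S1P-treated samples, and a higher S1pr1 share in 2 of 3.

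**Figure D2:**
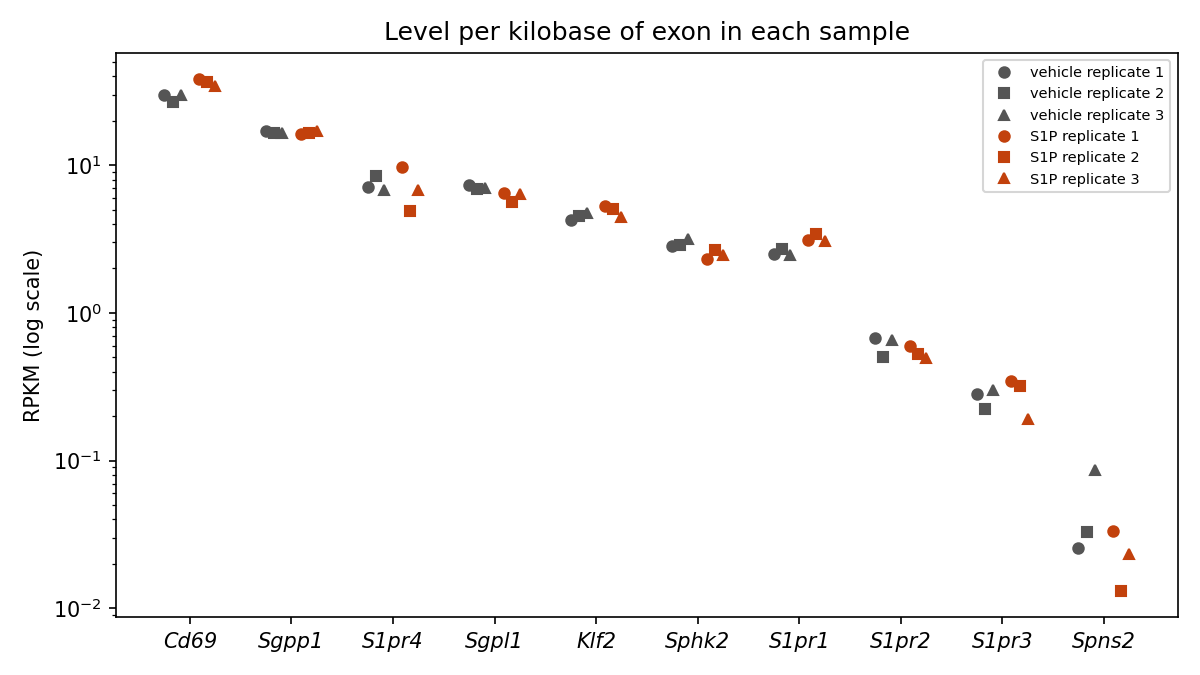
RPKM of the 10 genes in each of the 6 samples on a log axis, vehicle in grey and S1P in red, with a symbol for each replicate number. Cd69 is highest, with a vehicle mean of 28.9 RPKM, followed by Sgpp1 at 16.6 and ending with Spns2 at 0.0483, and S1pr1 and Sphk2 change places between the groups.

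The turnover genes Sphk2, Sgpl1 and Sgpp1 gave differences smaller in size than that of S1pr1, and none of them was called. Sphk2 (chromosome 7, 45358891 to 45367426, minus strand), 1 of the genes for the kinases that make S1P, gave 310.3, 316.9 and 346 normalized counts with vehicle and 254.6, 293.3 and 271.9 with S1P. The groups did not overlap, all S1P-treated samples being lower. The means were 324.4 ± 19 and 273.3 ± 19.38 (SD, n = 3), a log2 fold change of -0.25 (SE 0.10, 95% interval -0.46 to -0.04), and edgeR's adjusted p of 0.0714 did not pass the threshold. It passed without S1P replicate 2 alone, at -0.30 with an edgeR adjusted p of 0.0293. Of the exon bases of Sphk2, 38.1% lie under exons of Dbp and Rpl18 on the opposite strand, and the strand setting of the counting is not given in the sources used here. Rpl18, which encodes a ribosomal protein, went from 7959 ± 153.3 to 7552 ± 950.8 normalized counts (SD, n = 3) with a log2 fold change of -0.07, and Dbp, which encodes a circadian transcription factor, from 53.42 ± 8.316 to 58.99 ± 7.114 with a log2 fold change of 0.15. The share of Sphk2 counts that could come from these genes was not tested.

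Sgpl1 (chromosome 10, 60934421 to 61011826, minus strand), the gene of the lyase, gave 706.4, 664 and 677.7 normalized counts with vehicle and 628.6, 549.1 and 614.5 with S1P. All S1P-treated samples were again lower than all vehicle samples. The means were 682.7 ± 21.61 and 597.4 ± 42.42 (SD, n = 3), and the log2 fold change of -0.19 (SE 0.08, 95% interval -0.36 to -0.02) had an edgeR adjusted p of 0.0930. It was called under 0 of the 16 alternative fits. The ratio of Sphk2 to Sgpl1 RPKM, kinase to lyase, was 0.386, 0.42 and 0.449 with vehicle and 0.356, 0.47 and 0.389 with S1P, so the groups overlapped in it.

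Sgpp1 (chromosome 12, 75761023 to 75782605, minus strand) had the change nearest to 0 of the 9 members tested. Its normalized counts were 1438, 1395 and 1407 with vehicle and 1386, 1397 and 1448 with S1P. The log2 fold change was -0.0028 (SE 0.06, adjusted p = 0.978 by edgeR), and its 95% interval of -0.14 to 0.13 is the narrowest of the members. Sphk1, the other kinase gene, was too low to test, with 1, 0 and 2 counts with vehicle and 8, 2 and 3 with S1P. The sums of 3 and 13 give a rate ratio of 4.81 with a 95% counting interval of 1.32 to 26.3, and 8 of the 13 counts came from S1P replicate 1. With the filter removed, edgeR's test across all genes gave it an adjusted p of 0.226.

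Spns2 (chromosome 11, 72342463 to 72380840, minus strand), whose product exports S1P and is best known from endothelial cells, was hardly detected. Its raw counts were 3, 3 and 9 with vehicle and 4, 1 and 2 with S1P. The sums of 15 and 7 correspond to 0.322 CPM (95% counting interval 0.18 to 0.531) and 0.167 CPM (0.067 to 0.343), and 9 of the 15 came from vehicle replicate 3. The rate ratio of S1P to vehicle was 0.518 (0.179 to 1.35), so a difference was not shown at this depth.

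Of the egress regulators, Cd69 (chromosome 6, 129244288 to 129252399, minus strand) was the most abundant of all 10 genes and the one with the smallest p. Its normalized counts were 2885, 2561 and 2890 with vehicle and 3706, 3534 and 3325 with S1P. All S1P-treated samples were higher. The mean rose from 2779 ± 188.6 to 3521 ± 191.2 (SD, n = 3), 1.27-fold, with a log2 fold change of 0.34 (SE 0.07, 95% interval 0.18 to 0.50, adjusted p = 0.00555 by edgeR). Its longest transcript has a GC content of 35.91%, against 47.05% for S1pr1 and 62.11% for Klf2. With an offset for GC content the log2 fold change of Cd69 was 0.20 with an edgeR adjusted p of 0.0795, so the call depends on that choice. Without vehicle replicate 2, the lowest sample, it was 0.28, below the fold threshold, with an edgeR adjusted p of 0.0391.

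Klf2 (chromosome 8, 73072726 to 73075502, plus strand) gave 133.5, 143.8 and 150.7 normalized counts with vehicle and 168.4, 158.9 and 141.2 with S1P. S1P replicate 3 lay among the vehicle samples. The means were 142.7 ± 8.689 and 156.1 ± 13.8 (SD, n = 3), and the log2 fold change was 0.14 (SE 0.12, 95% interval -0.13 to 0.41, adjusted p = 0.433 by edgeR). It was 0.09 without vehicle replicate 1, 0.07 without S1P replicate 1 and 0.21 with the GC offset, and not called in any of these. The interval holds 0 and also the estimate for S1pr1, so it was not shown that Klf2 stayed level.

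**Figure D3:**
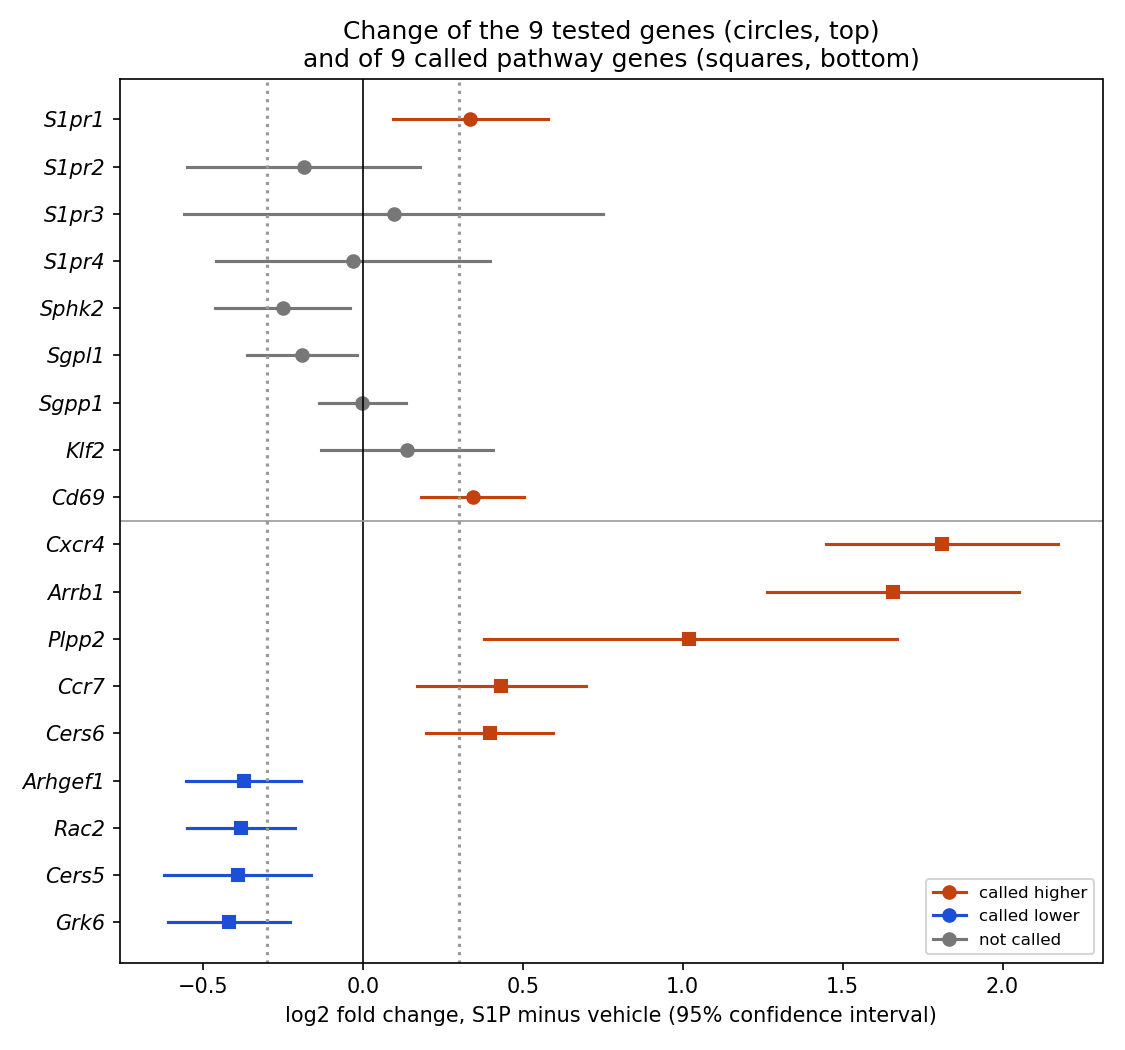
Log2 fold change of S1P against vehicle with its 95% interval for the 9 members tested (circles) and 9 called genes of the pathway list (squares), red for called higher, blue for called lower and grey for not called, with dotted lines at the fold threshold of 0.3. S1pr1 and Cd69, both at 0.34, are the members called higher, and Cxcr4 at 1.81 and Arrb1 at 1.66 exceed every member.

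**Figure D4:**
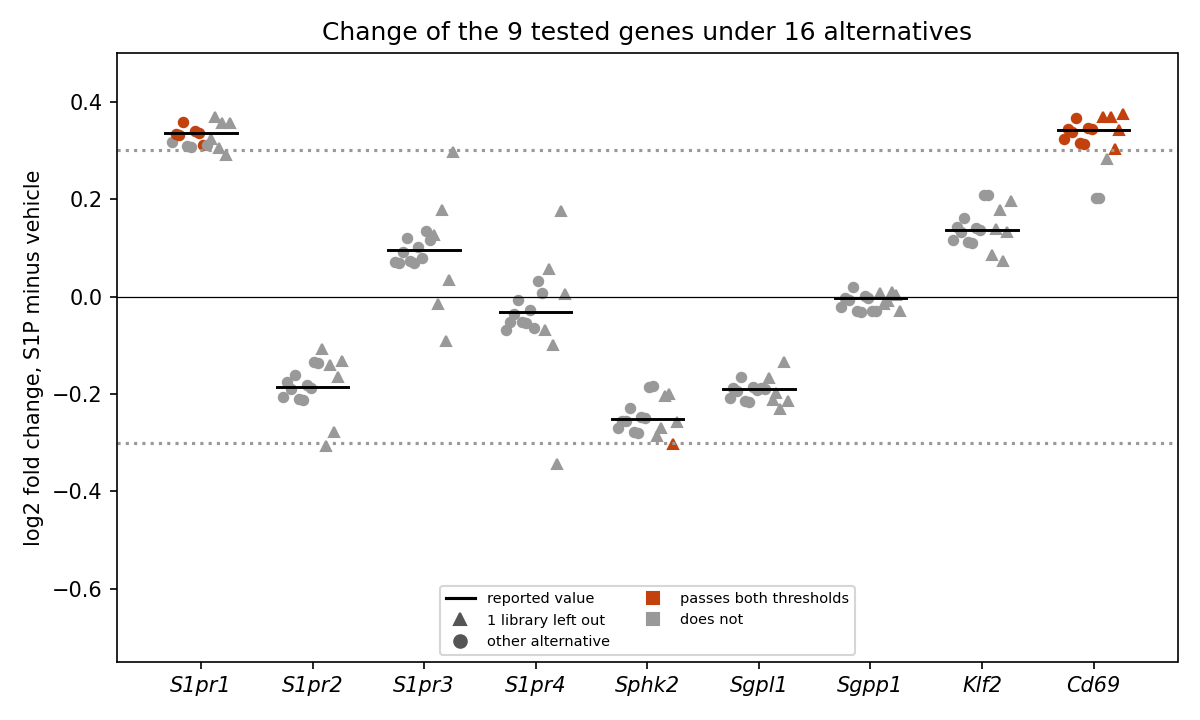
Log2 fold change of the 9 members tested as reported (black line) and under 16 alternative fits, triangles with 1 library left out and circles for the others, red where both thresholds were passed and grey where not. Dotted lines mark the fold threshold of 0.3. S1pr1 keeps a positive value of 0.29 to 0.37 throughout but is called under 6 of 16, and Cd69 under 13 of 16.

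Across the members, levels per length spanned from Cd69, at 28.9 ± 1.96 RPKM with vehicle and 36.6 ± 1.99 with S1P, to Spns2, at 0.0483 ± 0.0331 and 0.0233 ± 0.0102 (SD, n = 3). Between them with vehicle came Sgpp1 at 16.6, S1pr4 at 7.44, Sgpl1 at 7.05, Klf2 at 4.52, Sphk2 at 2.95, S1pr1 at 2.55, S1pr2 at 0.613 and S1pr3 at 0.27 RPKM. Among neighbours in this order, only the ranges of S1pr4 and Sgpl1 overlapped, in both groups, and with S1P the range of S1pr4 (4.88 to 9.74) also reached that of Klf2 (4.47 to 5.34). S1pr1 stood below Sphk2 with vehicle and above it with S1P, at 3.22 against 2.48 RPKM. That change of place depended on the length used, since with the length of the canonical transcript Sphk2 stood above S1pr1 in both groups, at 6.19 against 3.47 RPKM with vehicle and 5.21 against 4.38 with S1P.

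The patterns most like S1pr1 over the 6 samples, by the root mean square difference of log2 CPM, centred on each gene's mean, were those of Smim19 (0.03), Oip5os1 (0.03) and Prelid1 (0.03) among 8737 genes searched. For Klf2 they were Unk (0.03), Kat2b (0.04) and Ergic3 (0.04). These 6 names describe likeness over 6 samples only.

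The other genes that make, carry and transduce S1P or regulate Klf2 and homing formed a list of 56, of which 48 could be tested. After S1P 6 of the 48 rose (12.5%, against 12.7% of all genes tested) and 4 fell (8.33%, against 10.4%). The median log2 fold change over the 48 was 0.10.

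Homing and retention genes were among those that rose. Cxcr4, the receptor for CXCL12 that holds cells in bone marrow and lymphoid stroma, had 90.1, 96.25 and 67.3 normalized counts with vehicle and 354.1, 254.5 and 271.9 with S1P. It rose by a log2 fold change of 1.81 (SE 0.17, adjusted p = 4.04e-05 by edgeR), well apart in all samples. Ccr7, the lymph node homing and retention receptor, had 2338, 2494 and 2129 with vehicle and 3704, 2485 and 3183 with S1P. It rose by 0.43 (SE 0.12, adjusted p = 0.0199 by edgeR), with S1P replicate 2 inside the vehicle range, and the call was lost without vehicle replicate 1 or 3 and without S1P replicate 1 or 3, at 0.29 to 0.44 (edgeR adjusted p from 0.0501 to 0.0957). Itgb7, Itgae and Cxcr6 did not pass, and Itga1 was too low to test.

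Of the 6 tested desensitization genes 1 rose and 1 fell (16.7% each, against 12.7% higher and 10.4% lower over all genes). Arrb1, which encodes 1 of the arrestins that bind phosphorylated receptors, had 594.2, 846.8 and 455 normalized counts with vehicle and 2340, 1729 and 1877 with S1P. It rose by a log2 fold change of 1.66 (SE 0.18, adjusted p = 0.000108 by edgeR). Grk6, 1 of the kinases that phosphorylate activated receptors, fell by 0.42 on the log2 scale, from 2722 ± 64.56 to 2031 ± 259.8 normalized counts (SD, n = 3; adjusted p = 0.00472 by edgeR). Grk2, the kinase that acts on S1PR1, changed by -0.24 (adjusted p = 0.0239 by edgeR), which is under the fold threshold. Arrb2, the other arrestin gene of the list, had a log2 fold change of 0.19 (adjusted p = 0.0718 by edgeR) and was not called. Neither Grk5 nor Dnm2 was called.

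Of 11 tested genes that couple receptors to their effectors, 0 rose (0%, against 12.7% of all genes tested) and 2 fell (18.2%, against 10.4%). Rac2, a GTPase of haematopoietic cells that acts in migration, fell by 0.38 on the log2 scale, from 4649 ± 38.23 to 3562 ± 348.3 normalized counts (SD, n = 3; adjusted p = 0.00399 by edgeR). Arhgef1, a guanine nucleotide exchange factor that acts downstream of G12 and G13 proteins, fell by 0.37, from 4413 ± 69.39 to 3402 ± 382.4 (SD, n = 3; adjusted p = 0.00621 by edgeR), and without S1P replicate 2 by 0.29, below the fold threshold. In these 2 genes the vehicle samples were close together and S1P replicate 2 was the lowest, at 3163 for Rac2 and 2988 for Arhgef1.

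The list of sphingosine and ceramide genes holds ceramidases, which release sphingosine, and ceramide synthases, which use it, and of its 8 tested genes 1 rose and 1 fell, both of them ceramide synthases (12.5% each way, against 12.7% higher and 10.4% lower over all genes). Cers6 rose from 319.4 ± 11.48 to 418.8 ± 32.78 normalized counts (SD, n = 3), by 0.40 (SE 0.09, adjusted p = 0.00749 by edgeR). Cers5 fell by 0.39 on the log2 scale, from 985.3 ± 13.01 to 746.7 ± 125.3 (SD, n = 3; adjusted p = 0.0161 by edgeR), and the call was lost without any single vehicle library (changes of -0.40 to -0.39, edgeR adjusted p from 0.0524 to 0.0562) and without S1P replicate 2 (a change of -0.27, below the fold threshold). Plpp2, a lipid phosphate phosphatase gene, rose by 1.02 (SE 0.30, adjusted p = 0.0232 by edgeR) at 23.8, 43.26 and 23.7 counts against 71.32, 38.76 and 68.27, so the groups overlapped, and its call was lost without vehicle replicate 1 or 3 and without S1P replicate 1 or 3, at 0.86 to 0.92 (edgeR adjusted p from 0.0682 to 0.102). Of 11 tested genes that regulate Klf2 0 were called by edgeR, against 23.1% of all genes. By edgeR, 4 genes of the list passed the adjusted p but not the fold threshold and were picked out after their values were seen: Grk2, Foxo1, a transcription factor that activates Klf2, at 0.27 (adjusted p = 0.0123), the ceramidase gene Asah1 at 0.24 (adjusted p = 0.0452) and Cers2 at -0.24 (adjusted p = 0.0395).

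The labelled cell type was checked against marker genes. Cd8a stood at 60.9 ± 6.829 RPKM with vehicle and Cd8b1 at 52.91 ± 11.39, as CD8+ T cells have, but Cd4 stood at 45.15 ± 4.075 and the immunoglobulin gene Ighm at 279.3 ± 25.24 RPKM (SD, n = 3), so transcripts of CD4+ T cells and B cells were present in all samples. The highest CD8 T list gene was Trac, the T cell receptor constant gene, at 309.8 RPKM with vehicle and 293.8 with S1P.

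Cd8a fell to 38.25 ± 1.831 RPKM (SD, n = 3), by 0.67 on the log2 scale (adjusted p = 0.000243 by edgeR), and Cd8b1 to 35.99 ± 2.904, by 0.55 (adjusted p = 0.00767 by edgeR). Of the 8 CD8 T list genes 1 rose (12.5%, against 12.7% of all genes) and 2 fell (25%, against 10.4%), and their summed level was 1690 to 1870 CPM with vehicle and 1570 to 1740 with S1P. The genes of this list other than Cd8a and Cd8b1 (Cd3d, Cd3e, Cd3g, Cd2, Lck and Trac) are also expressed by CD4+ T cells. The sum is therefore no measure of CD8+ T cells alone. Of the 4 CD4 T list genes 2 rose (50%) and 0 fell, Zbtb7b by 0.37 and Cd40lg by 0.50, while Cd4 had a log2 fold change of 0.10 (adjusted p = 0.487 by edgeR). Their sum was 229 to 272 with vehicle and 251 to 318 with S1P. Of the 8 B list genes 1 rose and 1 fell (12.5% each), Ebf1 by 0.60 and Ms4a1 by 0.39, with sums of 1030 to 1250 and 1110 to 1210. S1pr1, Ccr7, Klf2, Cd69, Cxcr4 and Arrb1 are expressed by several of these cell types. The part of the cell make-up in the values of these and the other genes described above was not tested. In bulk samples fewer cells of a type and less RNA per cell cannot be told apart.

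Other sources were low. Myeloid markers summed to 3.59 to 4.56 CPM with vehicle and 2.98 to 5.6 with S1P, with Cd68 highest per length and Fcgr1, S100a8 and S100a9 at 3 counts or fewer in every sample. Natural killer markers summed to 2.07 to 2.37 and 2.02 to 4.11, with Ncr1 highest per length with vehicle and Klra4 with S1P, and erythroid and platelet markers to 0.952 to 1.93 and 0.70 to 2.27, with Alas2 highest per length in both groups. Endothelial markers summed to 68.9 to 73.8 and 80 to 84.2 without overlap. Nearly all of that sum was Pecam1, which T and B cells also express (log2 fold change 0.19, adjusted p = 0.0558 by edgeR), and the defining endothelial genes Cdh5, Tie1 and Emcn were at 3 counts or fewer in every sample.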

How the data were processed

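Reads were trimmed with Trim Galore, aligned with STAR to GRCm39 (per the submitters' processing notes) and counted per gene with featureCounts by the authors, from strand-specific polyadenylated libraries sequenced as paired-end reads. The deposited values are raw counts, whole numbers without normalization. Tool versions, annotation release, strand setting and handling of reads with several matches are not given in the sources used here. All 6 count columns were matched to samples by name.

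Symbols and lengths came from GENCODE vM39 (GRCm39), which matched 98.9% of 56941 identifiers. Counts were tested in R 4.3.3 with edgeR 4.0.16 (filterByExpr, TMM, quasi-likelihood, treatment as the only term, two-sided), with Benjamini-Hochberg adjustment over 13299 genes. Thresholds (0.05 for the adjusted p, 0.3 for the size of the log2 fold change) are those the study used, and the treatment-only design was chosen because its methods state no other term. The common biological coefficient of variation was 0.0826. Intervals for low genes are exact at 95% and cover counting error only.

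Alternatives were DESeq2 1.42.0, limma-voom (limma 3.58.1), other scalings and filters, a replicate block, a GC offset, other thresholds, other gene lengths and leaving out each sample.

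The members, and the lists of pathway and marker genes, were chosen with earlier results of these data known. Named were all members, every called pathway gene but 1, which is not reported here, S1pr5 and Sphk1, the highest gene of each marker list, and the 3 patterns nearest to S1pr1 and to Klf2 among genes whose log2 CPM averaged 3 or more. Further names (Rpl18, Dbp, the other markers, 4 genes past the adjusted p only, and other list genes named as not called or too low to test) were added after values were seen. Promoters are from RefSeq (GRCm38.p6, 250 bases before the start, both strands searched).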

Additional observations from a re-analysis of the deposited data

How the results depend on the processing

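Under 16 alternative fits Sphk2, Sgpl1, S1pr2, Klf2, Cd69 and S1pr1 kept their direction, and Cxcr4, Arrb1, Cers6, Grk6 and Rac2 kept their call as well. The number of members called higher, 2, was 1 with DESeq2, with scaling by total count only, without the filter on low counts, with the GC offset and at an adjusted p of 0.01. It was 0 with the replicate block and GC offset together and at a log2 fold change of 1, and ranged from 0 to 1 without single replicates. Members called lower, 0, ranged from 0 to 1 without single replicates. For S1pr1 the adjusted p ranged from 0.0308 to 0.187 over the alternatives, and it was 0.134 with DESeq2, and by edgeR 0.0661 with total count only, 0.187 without the filter and 0.0574 with the block and GC offset. Cd69 had 0.20 with an edgeR adjusted p of 0.0505 in that last fit. List genes called higher were 3, and called lower 0, at a log2 fold change of 1. Those called lower, 4, ranged from 2, without S1P replicate 2, to 7, without S1P replicate 1. The cause was not tested.

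Signs turned for 3 members near 0, which were not called in any fit. S1pr4 was at 0.033 with the GC offset and 0.0081 with the block added, and -0.34 to 0.18 without single replicates. Sgpp1 was at 0.0204 with upper-quartile factors, 0.00076 with at least 10 counts in every sample, and -0.0294 to 0.0093 without single replicates. S1pr3 was at -0.0912 to 0.297 without single replicates.

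Same-numbered samples of the groups did not deviate together (correlations 0.12, -0.006 and 0.05), so the numbers were not taken as pairs. A replicate block left 2 members called higher and 0 lower and 6 and 4 list genes, with S1pr1 at 0.34 (adjusted p = 0.0471 by edgeR).

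Gene length moved shares and ratios. The S1pr1 share with vehicle was 25.5% with the longest transcript and 28.5% with the canonical one, a length chosen after seeing the data. The ratio of Sphk2 to Sgpl1 was 0.28 and 0.271 with the longest and 0.554 and 0.536 with the canonical transcript, for vehicle and S1P. Depth limits S1pr3, S1pr5, Sphk1 and Spns2.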
